A study of Mus musculus with 60 samples.

Results

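The transcripts described here are those of 10 enzymes of mitochondrial beta-oxidation. Every probe set whose annotation names 1 of these genes and no other was taken, which gave 18 probe sets of the 45037 tested and 10 genes of the 18193 named. Fatty acid beta-oxidation in the mitochondrial matrix shortens an acyl-CoA by repeated rounds of dehydrogenation, hydration, a second dehydrogenation and thiolysis. Separate enzymes serve long, medium and short chains, and the pathway is a main source of energy in slow, oxidative muscle fibres, in heart and in brown fat. Acadvl, Acadl, Acadm and Acads encode the very long-, long-, medium- and short-chain acyl-CoA dehydrogenases. Hadha and Hadhb encode the alpha and beta subunits of the trifunctional protein, which carries out the last steps on long chains. Echs1 (short-chain enoyl-CoA hydratase), Hadh (hydroxyacyl-CoA dehydrogenase) and Acaa2 (3-ketoacyl-CoA thiolase) act on shorter chains, and Decr1 (2,4-dienoyl-CoA reductase) prepares unsaturated chains.

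The study asked how loss of myostatin, a secreted inhibitor of muscle growth encoded by Mstn, changes gene expression during development. Mstn-null C57BL/6J mice were compared with wild-type C57BL/6J mice as embryos, taken whole at 13.5 d.p.c. (days post coitum), as hindquarters at 17.5 d.p.c. and as pectoralis muscle at d35 (postnatal day 35). Each of the 5 pools per genotype and age held RNA of 3 animals, and each pool was hybridised to a pair of Affymetrix chips, MOE430A and MOE430B, so that 30 pools gave 60 arrays. Sex was not given in the sources used here, the deletion was present in every tissue, and tissue changed with age. No probe set was named Mstn, and the deleted gene was not analysed here. Values are log2 intensities after robust multi-array analysis (RMA). A difference is Mstn-null minus wild-type, the opposite direction to the wild-type over null ratio used in the study, so a negative value means lower in Mstn-null. A probe set was called when its Storey q over all 45037 probe sets was under 0.05 in limma. The brightest probe set stands for each gene unless another is named or another choice is stated. In a bulk tissue, fewer cells of a type and less RNA per cell cannot be told apart.

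A pair of these genes are neighbours. Hadha and Hadhb lie head to head on mouse chromosome 5, with start sites 273 bases apart in RefSeq annotation of GRCm38.p6. The 250 bases before the Hadhb start (chr5:30155003-30155252, plus strand) are shown because they are also almost the whole upstream region of Hadha. Capitals mark the 228 bases that both 250-base windows share, and the Hadha transcript runs the other way.
Hadhb: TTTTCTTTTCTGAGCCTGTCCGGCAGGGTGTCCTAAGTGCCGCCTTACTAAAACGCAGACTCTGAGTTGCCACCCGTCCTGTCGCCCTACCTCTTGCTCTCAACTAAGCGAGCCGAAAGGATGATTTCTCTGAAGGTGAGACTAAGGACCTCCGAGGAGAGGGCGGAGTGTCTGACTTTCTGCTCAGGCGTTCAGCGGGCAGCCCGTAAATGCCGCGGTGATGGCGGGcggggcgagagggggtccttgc
The response elements of PPAR and ERR receptors, which are known to regulate genes of this pathway, were searched in the window of 250 bases before to 50 bases after the start site. The PPAR/RXR element was taken as 2 copies of AGGTCA in the same direction with 1 base between them and at most 2 mismatches in 12 bases, and the ERR element as TCAAGGTCA with at most 1 mismatch, which contains the same half-site. Both strands were read. RefSeq promoters were matched for 8 of the 10 genes, all but Acaa2 and Decr1. Echs1 held a match to the direct repeat, and none of the 8 held the ERR element. Of 32851 mouse promoters of that length, 3.86% held the direct repeat and 7.46% the ERR element. The Echs1 match is shown in capitals in the 250 bases before the start site (chr7:140116422-140116671, minus strand), 83 bases upstream of the start at its 5′ end and with 2 mismatches.
Echs1: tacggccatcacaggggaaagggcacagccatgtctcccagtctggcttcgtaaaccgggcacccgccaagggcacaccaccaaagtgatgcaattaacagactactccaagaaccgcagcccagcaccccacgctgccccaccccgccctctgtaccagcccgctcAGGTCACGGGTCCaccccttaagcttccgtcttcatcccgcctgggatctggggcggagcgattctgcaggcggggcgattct
A match of this kind is a description of letters, not a site, and no match says only that these letters are not in this window.

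At d35 the enzymes were lower in Mstn-null pectoralis muscle along the whole pathway. Of the 10 genes, 9 were called lower and 0 higher, where 3.13% of all genes were called lower by their brightest probe set. Echs1 missed the threshold at q = 0.0614. The median difference of the 10 genes was −0.36 and ranged from −0.52 to −0.22, while the median over all genes was 0.01. Over all 18 member probe sets, 13 were called lower against 2.5% of all probe sets, and each of the 18 had a negative difference. Without wild-type replicate 3 the number of genes called was 4, and without Mstn-null replicate 2 or Mstn-null replicate 3 it was 5. Over all probe sets 777, 1443 and 1066 were called in these fits, in this order, against 2062 with every pool. In 10 of the 18 probe sets every Mstn-null pool lay below every wild-type pool, as was true of 2.48% of all probe sets.

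**Figure D1:**
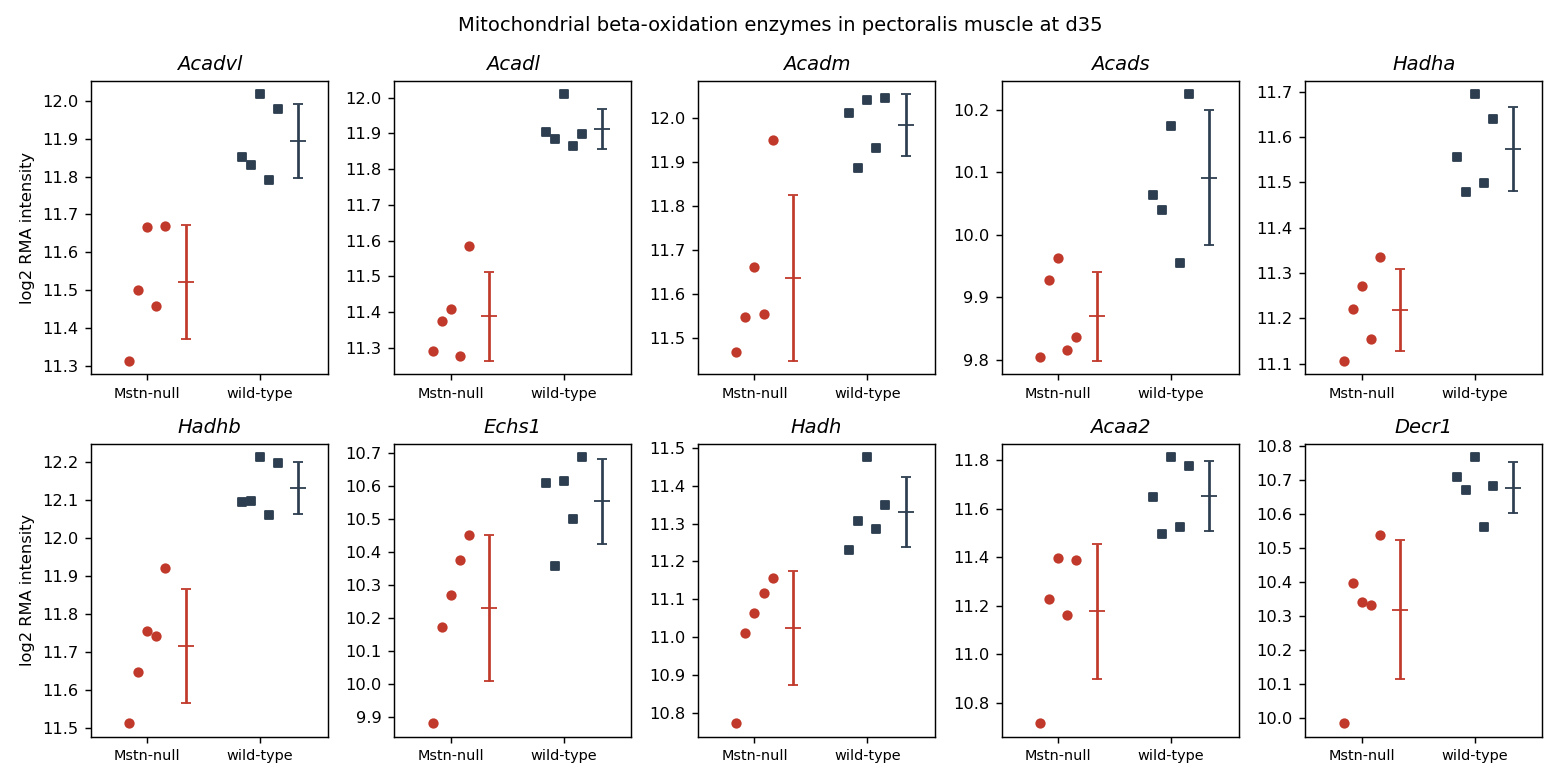
Level of each enzyme in pectoralis muscle at d35 as log2 RMA intensity, with a panel and a scale of its own for each gene. Points are the 5 pools of a genotype in pool order, and the bars at the side give the mean ± SD. In 7 of the 10 panels all Mstn-null pools lie below all wild-type pools, and Mstn-null pool 1 is the lowest pool in 9, all but Acadl.

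Acadl had the most negative difference of the 10 genes, although a further probe set of Acaa2 lay lower, at −0.55. Acadl (probe set 1448987_at), the long-chain acyl-CoA dehydrogenase, measured 11.29, 11.37, 11.41, 11.28 and 11.59 in Mstn-null pools 1 to 5, against 11.90, 11.88, 12.01, 11.86 and 11.90 in the wild-type pools. The groups did not overlap. The difference was −0.52 ± 0.06 (SE, 5 pools each; q = 0.000573), a level 30.5% lower in Mstn-null. Acadvl (probe set 1424184_at), which starts the oxidation of very long chains at the inner membrane, measured 11.31, 11.50, 11.67, 11.46 and 11.67 in Mstn-null pools, against 11.85, 11.83, 12.02, 11.79 and 11.98 in wild-type pools. Its difference was −0.37 ± 0.07 (q = 0.0109), again without overlap.

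The trifunctional protein genes fell together. Hadha (probe set 1452173_at), which holds the hydratase and dehydrogenase activities, measured 11.11, 11.22, 11.27, 11.16 and 11.34 in Mstn-null pools and 11.56, 11.48, 11.69, 11.50 and 11.64 in wild-type pools, a difference of −0.36 ± 0.06 (q = 0.00437). Hadhb (probe set 1426522_at), the thiolase subunit that shares the promoter region printed above, measured 11.51, 11.65, 11.75, 11.74 and 11.92 in Mstn-null pools and 12.09, 12.10, 12.21, 12.06 and 12.20 in wild-type pools, a difference of −0.42 ± 0.07 (q = 0.00432). Neither gene overlapped between the genotypes. The other Hadhb probe sets gave −0.39 ± 0.09 (q = 0.0207) and, for the dimmer one on MOE430B, −0.33 ± 0.05 (q = 0.0039). The level of Hadhb over Hadha within a pool averaged 0.50 ± 0.09 in Mstn-null and 0.56 ± 0.04 in wild-type pools (log2 difference of the probe sets, SD), and these values overlapped.

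Medium-chain enzymes fell with them. Acadm (probe set 1415984_at), whose loss in humans is the commonest inherited defect of this pathway, measured 11.47, 11.55, 11.66, 11.55 and 11.95 in Mstn-null pools, against 12.01, 11.89, 12.04, 11.93 and 12.04 in wild-type pools. Mstn-null pool 5 reached into the wild-type range, and the difference was −0.35 ± 0.08 (q = 0.0231). The call held in 5 of the 10 fits that left out a pool. Acaa2 (probe set 1428145_at), the thiolase of the matrix, measured 10.72, 11.23, 11.40, 11.16 and 11.39 in Mstn-null pools, against 11.65, 11.50, 11.81, 11.52 and 11.78 in wild-type pools. The groups did not overlap, pool 1 of Mstn-null stood well below the others, and the difference was −0.47 ± 0.12 (q = 0.0286). This call too held in 5 of the 10 such fits. A further Acaa2 probe set gave −0.55 ± 0.09 (q = 0.00526), whereas the third gave −0.38 ± 0.14 and missed the threshold (q = 0.113).

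The short-chain enzymes also had negative differences, and 2 of the 3 were called. Acads (probe set 1460216_at), the short-chain acyl-CoA dehydrogenase, measured 9.81, 9.93, 9.96, 9.82 and 9.84 in Mstn-null pools and 10.06, 10.04, 10.17, 9.95 and 10.22 in wild-type pools, a difference of −0.22 ± 0.06 (q = 0.0412). Its groups overlapped, and the call held in only 1 of the 10 fits that left out a pool. Hadh (probe set 1460184_at), the dehydrogenase of shorter hydroxyacyl chains, measured 10.77, 11.01, 11.06, 11.12 and 11.16 in Mstn-null pools and 11.23, 11.31, 11.48, 11.29 and 11.35 in wild-type pools, a difference of −0.31 ± 0.07 (q = 0.0257). The call held in 7 of the 10 fits, as did that of Decr1. Its groups did not overlap, and a brighter Hadh probe set, of a kind that can cross-hybridise, gave −0.26 ± 0.05 (q = 0.0149). Echs1 (probe set 1452341_at), the hydratase of short chains, measured 9.88, 10.17, 10.27, 10.38 and 10.45 in Mstn-null pools, against 10.61, 10.36, 10.62, 10.50 and 10.69 in wild-type pools, with a difference of −0.32 ± 0.10. Its lowest pool was Mstn-null pool 1, the groups overlapped, and it was called in 2 of the 10 fits that left out a pool. Decr1 (probe set 1419367_at), the auxiliary reductase, measured 9.98, 10.40, 10.34, 10.33 and 10.54 in Mstn-null pools and 10.71, 10.67, 10.77, 10.56 and 10.68 in wild-type pools, a difference of −0.36 ± 0.09 (q = 0.0255) without overlap. Its dimmer probe set gave −0.24 ± 0.07 (q = 0.0514). The remaining uncalled probe sets, another of Acadl and another of Hadh, lay in the lower quartile of the chip at d35 and gave −0.11 and −0.12.

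By chain length, all 4 long-chain genes were called, with differences from −0.52 to −0.36, as were both medium-chain genes (−0.47 and −0.35) and 2 of the 3 short-chain genes (−0.32 to −0.22). By step, all 4 acyl-CoA dehydrogenases and both thiolases were called, and of the hydratases Hadha was called and Echs1 was not. The 95% intervals of most genes overlapped, so the order of neighbours such as Acadvl, Decr1 and Hadha was within their error. Within pools, Acadl stood 1.52 ± 0.13 above Acads in Mstn-null and 1.82 ± 0.09 in wild-type pools (log2 difference of the probe sets, SD, 5 pools each), a shift of −0.30 ± 0.07 (SE). Acadl lay 0.25 ± 0.08 below Acadm in Mstn-null and 0.07 ± 0.06 below it in wild-type pools, a shift of −0.18 ± 0.04, and these values did not overlap. The shift of Hadhb against Acaa2 was 0.06 ± 0.08, and that of Hadha against Echs1 was −0.03 ± 0.08. These pairs are given as a description, without a test.

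**Figure D2:**
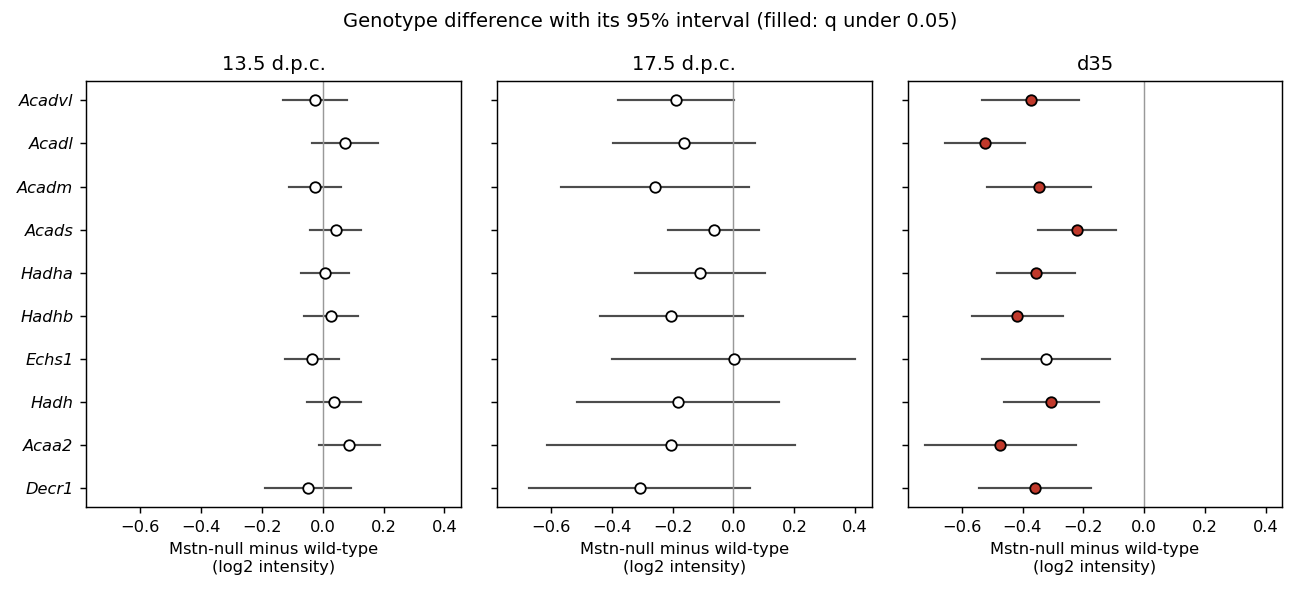
Difference in log2 intensity, Mstn-null minus wild-type, of the brightest probe set of each enzyme at the 3 ages, with the 95% interval from limma. Filled points are called at q under 0.05. At d35 9 of the 10 are filled and all lie below 0, while at 13.5 d.p.c. the points lie between −0.05 and 0.09 and at 17.5 d.p.c. the intervals are the widest.

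At 13.5 d.p.c. the enzymes did not separate by genotype. None of the 18 probe sets was called, with 0.54% of all probe sets called in either direction, and none passed an unadjusted p under 0.05. The 10 genes ranged from −0.05 for Decr1 to 0.09 for Acaa2, with a median of 0.02, and 4 were negative and 6 positive. Acadl measured 9.70, 9.63, 9.76, 9.59 and 9.76 in Mstn-null embryos and 9.51, 9.76, 9.61, 9.56 and 9.63 in wild-type embryos. The groups overlapped throughout, with a 95% interval of the difference that ran from −0.03 to 0.18. Hadhb gave 0.03, with an interval of −0.06 to 0.12. The pools of a genotype agreed closely at this age, with an SD of 0.03 to 0.17 among the 10 genes.

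At 17.5 d.p.c. the differences leaned the same way as at d35 but none was called, as for 0% of all probe sets. Of the 10 genes 9 were negative, with a median of −0.19, no q was near the threshold, and no unadjusted p was under 0.05. The spread between pools was wide. Decr1 measured 9.76, 9.60, 9.41, 9.40 and 8.89 in Mstn-null hindquarters, against 10.02, 9.79, 9.74, 9.74 and 9.30 in wild-type hindquarters, a difference of −0.31 with a 95% interval of −0.67 to 0.05. Pool 5 was the lowest of either genotype, and wild-type pool 1 the highest of all 10. Echs1 was also lowest in pool 5 of either genotype, with 10.34, 10.24, 10.07, 9.77 and 9.69 in Mstn-null and 10.55, 9.91, 10.02, 10.10 and 9.54 in wild-type hindquarters, and its difference was 0.00 with an interval of −0.40 to 0.40. Acadm gave −0.26 (−0.57 to 0.05) and Acadvl −0.19 (−0.38 to 0.00).

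At this age the enzymes moved with markers of liver. The mean of 8 liver genes, among them the serum proteins Alb and Afp, was 12.74, 12.33, 12.57, 11.77 and 8.49 in Mstn-null pools, against 13.46, 13.16, 12.70, 13.22 and 11.57 in wild-type pools. The mean of the 10 enzymes was 10.71, 10.68, 10.68, 10.44 and 10.28 in Mstn-null pools and 11.02, 10.69, 10.77, 10.76 and 10.38 in wild-type pools. The pools lowest in liver markers, Mstn-null pools 5 and 4 and wild-type pool 5, were also the lowest in the enzymes, and all 8 liver genes had a negative difference, from −1.80 to −0.91, without a call. With the liver level as a covariate in limma, a setting added after the data were seen, the enzymes ranged from −0.10 to 0.21, 7 negative and 3 positive, and 0 were called or had an unadjusted p under 0.05. In this fit 0 of all probe sets were called, as without the covariate. The liver level averaged 11.58 in Mstn-null and 12.82 in wild-type pools, so the fit gives up part of the genotype difference with it. Without the 2 pools numbered 5 all 10 were negative, from −0.28 to −0.04, and 0 were called, with an unadjusted p under 0.05 for 3. How many of all probe sets passed that cut in this fit was not counted. After each genotype's mean was taken off, the genes most like the mean of the enzymes over the 10 pools were Dhrs11, Txnl1, Ugt2b34, Sephs2 and Gjb1 (Pearson r of 0.98 each). Each stands by its probe set with the highest r. Of these, Gjb1 is a gap junction protein abundant in liver and Ugt2b34 belongs to a family of hepatic glucuronosyltransferases. The differences of the 5 ran from −0.71 for Gjb1 to 0.03 for Txnl1. Sephs2 was also the closest gene in pectoralis muscle at d35 (r = 0.97). The part of liver tissue in the enzyme levels was not tested beyond these values.

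**Figure D3:**
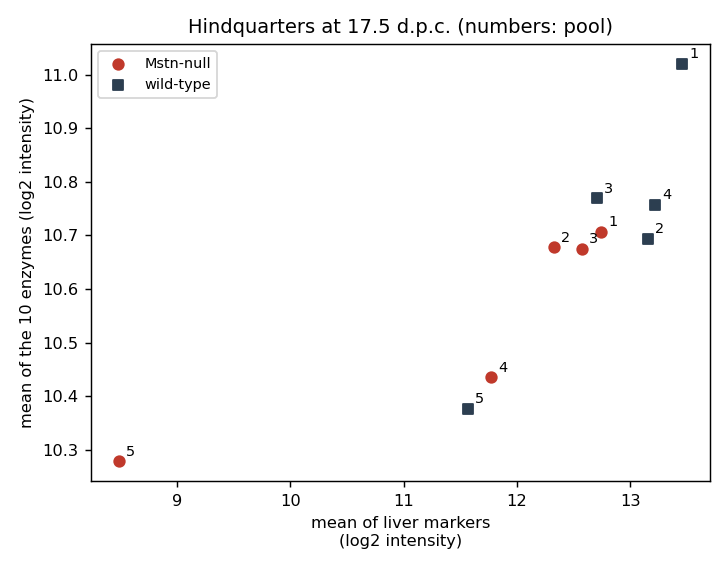
Mean log2 intensity of the 10 enzymes against the mean of 8 liver markers in each hindquarter pool at 17.5 d.p.c., with pool numbers beside the points. Mstn-null pool 5, at 8.49 on the liver axis, is lowest on both axes and wild-type pool 1 is highest on both.

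Whether the genotype difference itself changed with age was tested in 1 limma fit of all 30 pools, in which age and tissue cannot be told apart. Between d35 and 13.5 d.p.c. the difference moved by −0.60 ± 0.11 for Acadl (q = 0.0042) and by −0.44 ± 0.11 for Hadhb (q = 0.0411). These 2 genes were called, against 1.17% of all probe sets, and 8 of the 10 had an unadjusted p under 0.05. The share of all probe sets under that cut was not counted for any of the contrasts here. The MOE430B probe set of Hadhb was called as well, at −0.43 ± 0.11 (q = 0.0305). The remaining Hadhb probe set was not called, at −0.33 ± 0.14 (q = 0.287). Nor was the dim further probe set of Acadl, at −0.12 ± 0.13 (q = 0.636). Hadha followed at −0.36 ± 0.10 (q = 0.0574), Acads at −0.26 ± 0.08 (q = 0.0863) and Acadvl at −0.35 ± 0.10 (q = 0.095), none of them called. After further quantile normalisation Hadha was called too (q = 0.0266). Between d35 and 17.5 d.p.c. none of the 10 was called, where 0.715% of all probe sets were, 2 had an unadjusted p under 0.05, and Acadl came nearest at −0.36 ± 0.11 (q = 0.117). Between 17.5 and 13.5 d.p.c. none was called, 2 had an unadjusted p under 0.05, and 0% of all probe sets were called. In this fit the difference at d35 was thus called apart from that at 13.5 d.p.c. for Acadl and Hadhb, and from 17.5 d.p.c. for none of the 10. After further quantile normalisation Acadl was called against 17.5 d.p.c. too (q = 0.0472). The fit takes 1 variance per probe set over all ages, although the median SD between pools differed. It was 0.07 at 13.5 d.p.c., 0.11 to 0.13 at 17.5 d.p.c. and 0.09 at d35.

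Each of the 10 enzymes stood higher on the chip at d35 than at 13.5 d.p.c. in both genotypes, although intensities of different tissues were not set on a common scale. In percentiles of all MOE430A probe sets, Acadl stood at 82.1, 94.9 and 97.8 in Mstn-null and at 80.6, 95.8 and 98.5 in wild-type samples in the order 13.5 d.p.c., 17.5 d.p.c., d35. Decr1 stood at 74.4, 80.8 and 94.8 in Mstn-null and at 74.9, 84.5 and 96.1 in wild-type samples. Echs1 hardly moved between the earlier ages, at 88.1, 88.2 and 94.4 in Mstn-null and at 88.2, 88.0 and 95.7 in wild-type samples. Every enzyme was above the 92nd percentile in both genotypes at d35.

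Of the genes that bring fatty acids into the mitochondrion, 3 were measured by a probe set of their own. Slc25a20, the carnitine-acylcarnitine carrier, averaged 9.89 ± 0.16 in Mstn-null and 10.48 ± 0.19 in wild-type muscle (SD, 5 pools each), a difference of −0.59 ± 0.09 (q = 0.00355). Cpt2, the carnitine palmitoyltransferase of the inner membrane, averaged 10.15 ± 0.08 in Mstn-null and 10.64 ± 0.14 in wild-type muscle (−0.49 ± 0.07, q = 0.00168). Cpt1a, the transferase form best known from liver, gave −0.22 (q = 0.13). Of 12 electron transfer and helper enzymes, 4 were called lower and 0 higher, with a median of −0.20. They were Etfdh, which passes the electrons of the acyl-CoA dehydrogenases to the respiratory chain (−0.44 ± 0.08, q = 0.00526), the isomerases Eci1 (−0.43 ± 0.08, q = 0.00636) and Eci2 (−0.18, q = 0.0429), and Acad11 (−0.35, q = 0.00985). Etfa and Etfb, the electron carrier itself, gave −0.31 (q = 0.0575) and −0.20 (q = 0.0942).

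Peroxisomes shorten very long chains by a parallel pathway, and 11 of its genes were measured. Of these 4 were called lower and 0 higher, with a median of −0.18. They were Pex11a (−0.37, q = 0.00204) and Abcd3 (−0.34, q = 0.0129) of the peroxisomal membrane, the bifunctional enzyme Hsd17b4 (−0.25, q = 0.0381) and the thiolase Acaa1b (−0.67, q = 0.034). None of the 4 acyl-CoA dehydrogenases of amino acid breakdown, Acadsb, Acad8, Ivd and Gcdh, was called. Their differences ran from −0.12 to 0.02 with a median of −0.01. Of 15 genes that mark mitochondrial content, such as Cs (citrate synthase) and Uqcrc1, 14 were negative but only Cox4i1 was called (−0.16, q = 0.0438), and the median was −0.10. These lists are set beside the 3.13% of all genes called lower and their median of 0.01. A difference between the lists was not tested.

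**Figure D4:**
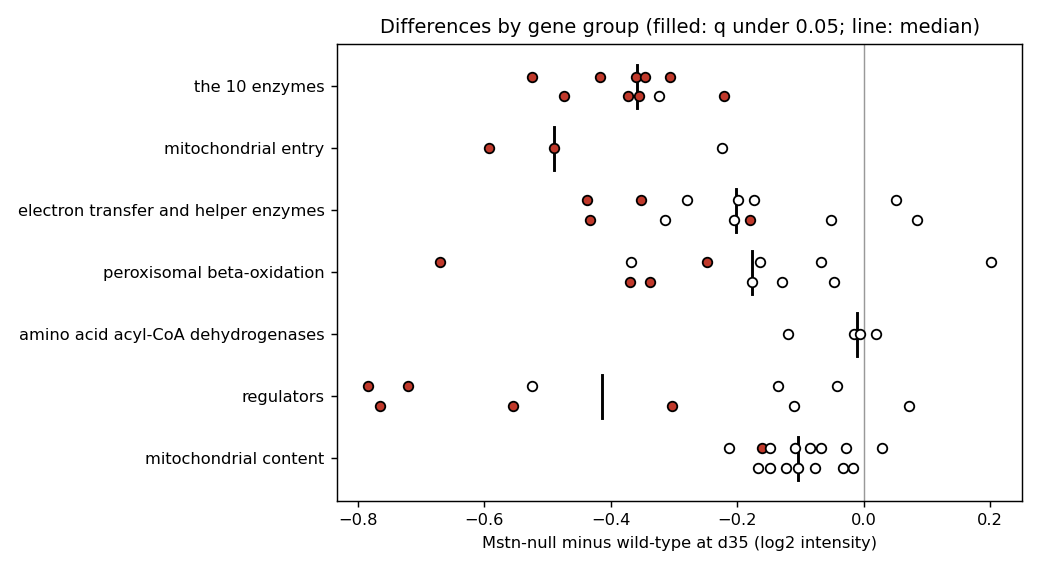
Difference at d35, Mstn-null minus wild-type in log2 intensity, for each gene of the fatty acid pathways, the related dehydrogenases, the regulators and the mitochondrial content list. Filled points are called at q under 0.05 and the vertical line is the median of the row, −0.36 for the 10 enzymes, −0.01 for the amino acid dehydrogenases and −0.10 for mitochondrial content.

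A list of 10 regulatory genes held receptors and coactivators of fatty acid oxidation and Pdk4, a kinase that acts on glucose use and not on these genes. Of the 10, 5 were called lower and 0 higher, with a median of −0.41, and 4 of the 5 were receptors or coactivators. Ppara, the fatty acid-activated receptor, averaged 7.72 ± 0.27 in Mstn-null and 8.44 ± 0.15 in wild-type muscle (−0.72 ± 0.11, q = 0.00355). Esrrg, an oestrogen-related receptor of oxidative tissues, averaged 7.05 ± 0.07 in Mstn-null and 7.83 ± 0.36 in wild-type muscle (−0.78 ± 0.13, q = 0.00469). Pdk4, which switches off pyruvate dehydrogenase, gave −0.76 ± 0.17 (q = 0.0171). Pparg (−0.55, q = 0.0295) and the coactivator Ppargc1b (−0.30, q = 0.0322) were also called, while Ppargc1a varied widely between pools (−0.52 ± 0.23, q = 0.161). Esrra gave −0.11 and Rxra 0.07, neither of them called.

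Slow fibre and adipocyte markers were also lower in Mstn-null at d35. All 6 slow fibre genes were called lower, from −2.61 for Myh7 to −1.86 for Myl3, with list means of 8.07 to 9.08 in Mstn-null and 10.41 to 11.05 in wild-type pools. Some of them, such as Myl2, are also made in heart, and none of the 6 cardiac markers was called. Of 7 fast fibre genes, Myh4 (0.58) and Actn3 (0.20) were called higher, where 2.65% of all genes were. In Mstn-null pools 1 to 5 the slow fibre level was 8.64, 8.07, 9.08, 8.08 and 8.55, and in the wild-type pools it was 10.72, 10.41, 10.69, 10.95 and 11.05. Of the Mstn-null pools, 2 and 4 were lower than 3 and 5 in slow fibre genes and in the enzymes. Mstn-null pool 1, however, was lowest in the enzymes and second highest in slow fibre genes. Of the wild-type pools, 4 was lowest in the enzymes and second highest in slow fibre genes. Wild-type pool 2 was lowest in slow fibre genes and second lowest in the enzymes. Wild-type pool 5 was highest in slow fibre genes and second highest in the enzymes. With the slow fibre level as a covariate in limma, a setting added after the data were seen, 0 of the 10 enzymes were called or had an unadjusted p under 0.05, and 0 probe sets were called in all. All 10 differences stayed negative, from −0.57 ± 0.33 for Decr1 to −0.06 ± 0.23 for Acads, and the errors were wide because the slow fibre level does not overlap between the genotypes.

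Brown adipocyte markers had the same lowest and highest pool as the enzymes in either genotype. These were pools 1 and 5 in Mstn-null and pools 4 and 3 in wild-type muscle. Wild-type pool 2, however, was second highest in these markers and second lowest in the enzymes. Ucp1, the uncoupling protein that defines brown fat, averaged 11.00 ± 0.66 in Mstn-null and 11.74 ± 0.26 in wild-type muscle at d35, the 96.9 and 98.3 percentile of the chip (−0.74 ± 0.25, q = 0.0865). The other 4 markers, Cidea, Elovl3, Otop1 and Ppara, were called lower, and the lowest of the 5 on the chip was Elovl3, at the 44.2 percentile in Mstn-null and 55.9 in wild-type muscle. Ppara is also among the regulators above. The mean of the 5 was 7.82, 8.30, 8.65, 8.39 and 8.93 in Mstn-null pools and 9.09, 9.35, 9.39, 8.79 and 9.23 in wild-type pools. The enzyme mean in the same pools was 10.78, 11.00, 11.08, 11.00 and 11.18 in Mstn-null and 11.37, 11.30, 11.48, 11.30 and 11.45 in wild-type muscle. Mstn-null pool 5 exceeded wild-type pool 4 in brown adipocyte markers, but not in the enzymes. Of the 5 white adipocyte markers measured, Cidec and Fabp4 were called lower. The list mean was 8.57 to 9.49 in Mstn-null and 9.42 to 9.69 in wild-type pools. Wild-type pools 4 and 5 were lowest in this mean, at 9.42 each, while pool 5 was second highest in the enzymes.

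With the brown adipocyte level as a covariate, a setting added after the data were seen, 0 of the 10 enzymes were called by limma, 3 had an unadjusted p under 0.05, and 49 probe sets were called in all. All 10 differences stayed negative, from −0.36 ± 0.08 for Acadl (q = 0.172) and −0.21 ± 0.08 for Hadha to −0.06 ± 0.09 for Decr1 and −0.05 ± 0.13 for Echs1. With the white adipocyte level they ran from −0.36 ± 0.07 for Acadl (q = 0.0775) to −0.08 ± 0.08 for Decr1. Again 0 were called, with 68 probe sets called in all against 2062 without a covariate, and 3 had an unadjusted p under 0.05. How many of all probe sets passed that cut was not counted in either fit. Both covariates differ between the genotypes, so that such a fit gives up part of the genotype difference with the covariate. The part of adipose tissue in the enzyme levels cannot be told apart from that of genotype beyond these values. Capillary endothelium moved too, with Kdr and Tek called lower of 4 markers and list means of 7.96 to 8.15 in Mstn-null and 8.25 to 8.44 in wild-type pools, without overlap, and its part was not tested.

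**Figure D5:**
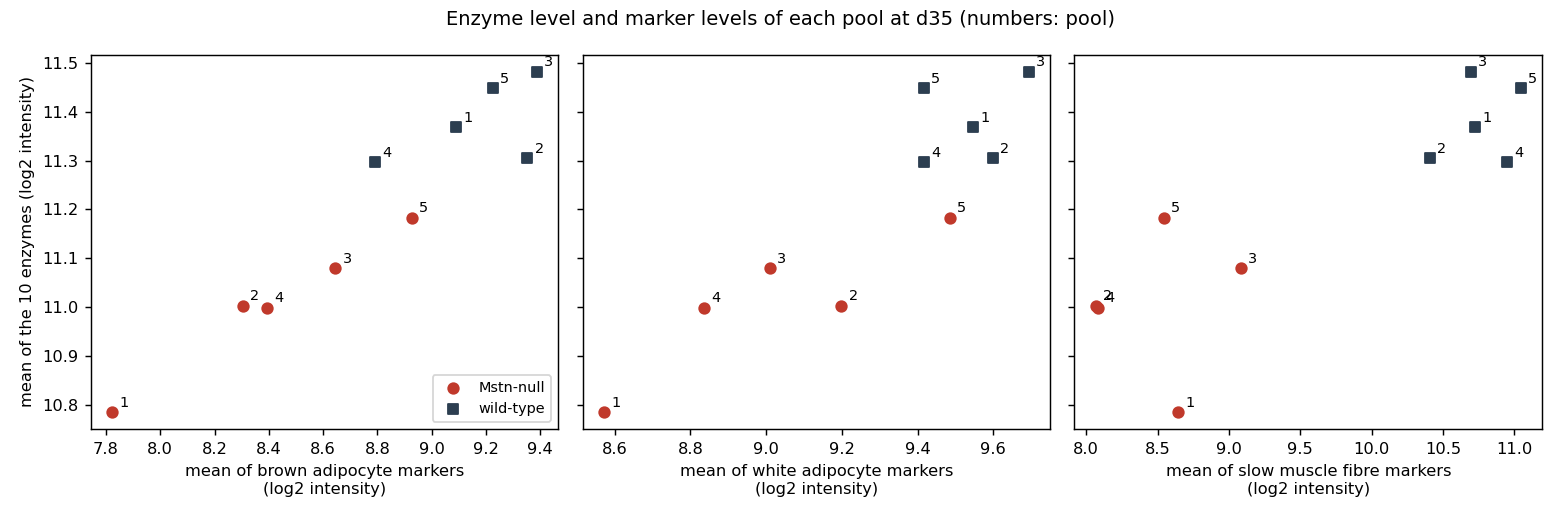
Mean log2 intensity of the 10 enzymes in each pectoralis pool at d35 against the mean of the brown adipocyte, white adipocyte and slow muscle fibre markers, with pool numbers beside the points. Within Mstn-null, pool 1 is lowest and pool 5 highest in the enzymes and in both kinds of adipocyte marker, while on the slow fibre axis the genotypes lie apart and pool 1 is not the lowest.

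Once each genotype's mean was taken off, the 10 enzymes varied together between pools at 17.5 d.p.c. and d35, and less so at 13.5 d.p.c. The median Pearson r over the 45 pairs of enzymes, across the 10 pools of an age, was 0.34 at 13.5 d.p.c. (−0.30 to 0.82), 0.85 at 17.5 d.p.c. (0.68 to 0.99) and 0.79 at d35 (0.26 to 0.94). These pools share tissue and array, and the values are a description. At d35 the genes closest to the mean of the enzymes were Sephs2, Gsn, Zfp664, Prxl2a and Bckdhb (r from 0.95 to 0.97). Bckdhb encodes a subunit of the dehydrogenase of branched-chain keto acids. Of these Gsn was called lower in Mstn-null (−0.31, q = 0.0433), and Sephs2 did not follow the genotype (0.02, q = 0.596). At 13.5 d.p.c. they were Txndc11, Chgb, Xrcc4, Reep6 and Gsn (r from 0.95 to 0.98).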

How the data were processed

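The authors hybridised biotin-labelled target from pooled RNA to the MOE430A and MOE430B chips and deposited log2 intensities per probe set from RMA in the R package affy (versions not given in the sources used here). Which arrays were normalised together was not given, and array medians agreed within an age and differed between ages, so tests were run within ages as in the methods of the study. Pools of the same genotype, age and number on the 2 chips were joined, 64 control probe sets per chip were left out, and the 100 probe sets on both chips were read from MOE430A. Genes came from the platform annotation, in which 34945 probe sets had 1 symbol, 932 several and 9160 none. Sequences came from RefSeq.

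Mstn-null and wild-type pools were compared with limma 3.58.1 in R 4.3.3, with Storey q values (lambda 0.05 to 0.95 in steps of 0.05), and the ages by interaction contrasts. The text names all 10 members, genes of the accompanying lists that were called or that a result turns on, and the 5 genes most like the enzymes at each age. Of a member or listed gene the probe set with the highest mean over the 30 pools was used, without suffix _x_at or _s_at where another existed. The genes most like the enzymes were taken by their probe set with the highest r, whatever its suffix. The members and lists were chosen with earlier results of these data known. The code was tested on simulated data. No pools were identical. That the pools of a group held separate animals is per the methods of the study, which count 15 animals in the 5 pools of a group. The labels say only that they are biological replicates. The number of arrays limits the precision. The 3′ over 5′ signal of the actin control on MOE430A at d35 was 0.06 to 0.21 in Mstn-null and 0.13 to 0.58 in wild-type pools (log2). At 13.5 d.p.c. it leaned the other way, at 0.20 to 0.35 in Mstn-null and 0.07 to 0.21 in wild-type pools. At 17.5 d.p.c. it was 0.24 to 0.37 in Mstn-null and 0.29 to 0.54 in wild-type pools. The part of this signal was not tested. Cpt1b, Acsl1, Plin1 and Cfd had no probe set of their own symbol and were not analysed here.

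The alternatives tried were Benjamini-Hochberg adjustment, each chip alone, a filter on dim probe sets, further quantile normalisation, centring of arrays, limma with trend and robust options, a single fit of 30 pools, a replicate block, the mean of a gene's probe sets and leaving out each pool. Covariates for liver, adipocyte and slow fibre markers, and leaving out both pools numbered 5 at 17.5 d.p.c., were added after the data were seen.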

Additional observations from a re-analysis of the deposited data

Results flagged for a closer look

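Among 60 groups of 5 pools, 2 held a pool far from the other 4, where chance gives about 1 in 20. Mstn-null pool 4 at 13.5 d.p.c. had 9.70 for Acadm, and the other Mstn-null pools lay between 9.75 and 9.76. Wild-type pool 3 at d35 had 12.01 for Acadl, and the other wild-type pools lay between 11.86 and 11.90. The genotype difference changed between 13.5 d.p.c. and d35 for Acadl, by −0.60 (log2, Mstn-null minus wild-type, d35 minus 13.5 d.p.c.), and for Hadhb, by −0.44, both called in the interaction test.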

How the results depend on the processing

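At 13.5 d.p.c. and at 17.5 d.p.c., 0 of the 10 enzymes were called in either direction under every alternative run. At d35 9 were called lower, and Acadvl, Acadl, Hadha and Hadhb were called under all 19 other settings without a covariate. The number called was 8 with Benjamini-Hochberg adjustment, further quantile normalisation or centring of arrays. It was 7 in the single fit of 30 pools and 10 with the filter on dim probe sets. It stayed 9 with each chip alone, the trend and robust options or a gene's probe sets averaged. All 10 differences stayed negative at d35 under every alternative. With 1 pool left out between 4 and 9 genes were called, the fewest without wild-type replicate 3, when Acadm, Acads, Hadh, Acaa2 and Decr1 lost the call, and 5 without Mstn-null replicate 2 or Mstn-null replicate 3. The added covariates for brown adipocyte, white adipocyte and slow fibre level left 0 enzymes called in each fit. Over all probe sets 49, 68 and 0 were called in these fits, against 2062 without a covariate. Between d35 and 17.5 d.p.c. 1 gene, Acadl, was called after further quantile normalisation (q = 0.0472) and 0 otherwise, and between d35 and 13.5 d.p.c. this setting added Hadha to the 2 called (q = 0.0266). Same-numbered pools correlated from −0.17 to 0.14 at d35, from −0.10 to 0.08 at 13.5 d.p.c. and from −0.20 to 0.49 at 17.5 d.p.c., where numbers 1, 3 and 5 but not 2 and 4 matched their own number best, so the numbers were not taken as pairs. With a replicate block in limma 0 enzymes were called at 17.5 d.p.c. Acadvl, Acadm, Hadhb and Decr1 (4 of 10) then had an unadjusted p under 0.05, against 0 without the block. The share of all probe sets under that cut was not counted with the block. With a replicate block 8 enzymes were called at d35, all but Acads and Echs1. Over all probe sets, 2062 were called at d35, 1324 after Benjamini-Hochberg adjustment and 777 without wild-type replicate 3. Without Mstn-null replicate 2 the number was 1443, and without Mstn-null replicate 3 it was 1066. At 13.5 d.p.c. 243 were called, 1 without wild-type replicate 1, 479 without wild-type replicate 5, 159 after Benjamini-Hochberg adjustment, 148 with arrays centred and 0 in the single fit of 30 pools, and 0 genes with a gene's probe sets averaged. The single fit called 14 at 17.5 d.p.c. against 0. The smallest difference of an enzyme that was called at d35 was −0.22, for Acads.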
